A study of Drosophila melanogaster with 2 samples.

Results

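ADD1 and XNP are the pair of Drosophila melanogaster genes that between them encode the parts found in the single mammalian protein ATRX, and they were chosen by name. Peaks of GFP-tagged ADD1 were examined inside each gene and within 20 kb of it. These were 2 of 13945 protein-coding genes on the 6 arms used here, and the windows held 8 of the 7944 peaks on the authors' list filtered by reproducibility (the IDR list, for irreproducible discovery rate). ADD1 (FBgn0026573) lies on the plus strand of 2R from 11970686 to 11977721 and has 1 annotated start. XNP (FBgn0039338) lies on the minus strand of 3R from 25477868 to 25482834 and has 2 starts, 25482834 and 25482578. All coordinates are dm6.

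The study mapped ADD1 by chromatin immunoprecipitation and sequencing in whole embryos of 0 to 24 h with the sexes pooled. Its 1 group holds 2 biological replicates of a transgenic line in which the C terminus of ADD1 is fused to GFP, and an anti-GFP antibody was used. Both replicates carry the same donor label, so the values speak for 1 line, and the labels do not say whether the tagged copy stands beside an untagged one. No second condition was analysed here, and XNP itself was not precipitated: at XNP the lists show where tagged ADD1 was found. Read counts, depth and the control were not analysed here. The 4 peak lists were 1 per replicate, 1 called on both replicates jointly, and the IDR list, which holds the 7944 peaks of the joint list with the highest signal. Each list other than the IDR list stops at exactly 30000 peaks. Peaks are given by their rank within a list, 1 being the highest signal, because the scale of the authors' signal was not stated.

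In mammals ATRX joins an ADD domain, which reads the tail of histone H3 at heterochromatin, to an ATPase of the SNF2 family that moves nucleosomes, and with its partner DAXX it places the histone variant H3.3. In flies the ADD domain sits in ADD1 and the ATPase in XNP, on different chromosomes. XNP is known from heterochromatin and from sites where H3.3 replaces older histones, and ADD1 is known as a partner of the heterochromatin protein HP1a.

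Sequence around the peaks that flank XNP is shown because it can be set beside the XNP start, where no list held a peak. Each run is 201 bases of the plus strand of 3R, read from the RefSeq copy of genome Release 6 and centred on a summit or on the outer XNP start. Capitals mark CGATA on either strand (TATCG on the minus strand), the core of the sites read by the promoter proteins DREF and BEAF-32. The first lies between Fur1 and Vps33B at the summit of rank 206 (chr3R:25473112-25473312), the second covers the neighbouring summit of rank 829 (chr3R:25473313-25473513), the third the summit of rank 606 at the Gnpat start (chr3R:25490830-25491030), and the last the XNP start (chr3R:25482734-25482934).
Fur1 and Vps33B, rank 206: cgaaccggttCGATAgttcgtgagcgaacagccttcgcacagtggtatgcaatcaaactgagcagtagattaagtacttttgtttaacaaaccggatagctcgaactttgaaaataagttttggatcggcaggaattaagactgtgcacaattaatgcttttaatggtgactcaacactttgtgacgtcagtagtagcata
Vps33B, rank 829: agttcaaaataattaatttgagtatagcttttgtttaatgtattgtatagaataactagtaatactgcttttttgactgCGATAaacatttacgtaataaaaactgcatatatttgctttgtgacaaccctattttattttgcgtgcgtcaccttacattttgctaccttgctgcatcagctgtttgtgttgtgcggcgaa
Gnpat, rank 606: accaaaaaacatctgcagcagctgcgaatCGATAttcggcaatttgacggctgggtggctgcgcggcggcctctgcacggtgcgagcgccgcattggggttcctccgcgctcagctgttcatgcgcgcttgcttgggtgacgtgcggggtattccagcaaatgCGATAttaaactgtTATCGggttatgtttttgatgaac
XNP start, no summit: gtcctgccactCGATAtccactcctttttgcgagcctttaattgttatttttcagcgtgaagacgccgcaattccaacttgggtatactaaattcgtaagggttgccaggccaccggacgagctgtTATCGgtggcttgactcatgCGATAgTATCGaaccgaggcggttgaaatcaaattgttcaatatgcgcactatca

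CGATA was present in all 4 windows. It occurred 1 time at rank 206 and 1 time at rank 829, 3 times at rank 606, and 4 times at the XNP start. Of all IDR summits, 2.67% had 4 or more within 100 bp, as had the XNP start, where no list placed a summit. The share of coding gene starts with 4 or more was not computed, so how the XNP start stands among starts is unknown. The longer palindrome TATCGATA was in none of the 4.

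Neither gene held an IDR summit inside it, as was the case for most genes. An IDR summit lay inside 17.3% of coding genes (exact 95% interval 16.6 to 17.9), and a joint-list summit inside 28.7%. Within 20 kb, ADD1 had 3 IDR summits and XNP had 5, against a median of 3 and quartiles of 1 and 6 over all coding genes. At least 1 was present for 82.4% of coding genes, so the presence of peaks in these windows sets neither gene apart. The joint list gave 6 summits at ADD1 and 15 at XNP, against a median of 10 with quartiles of 4 and 17. ADD1 is longer than most coding genes at 7036 bp, and so is XNP at 4967 bp, against a median of 2166 bp, and a longer gene offers more room for a summit inside it.

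**Figure D1:**
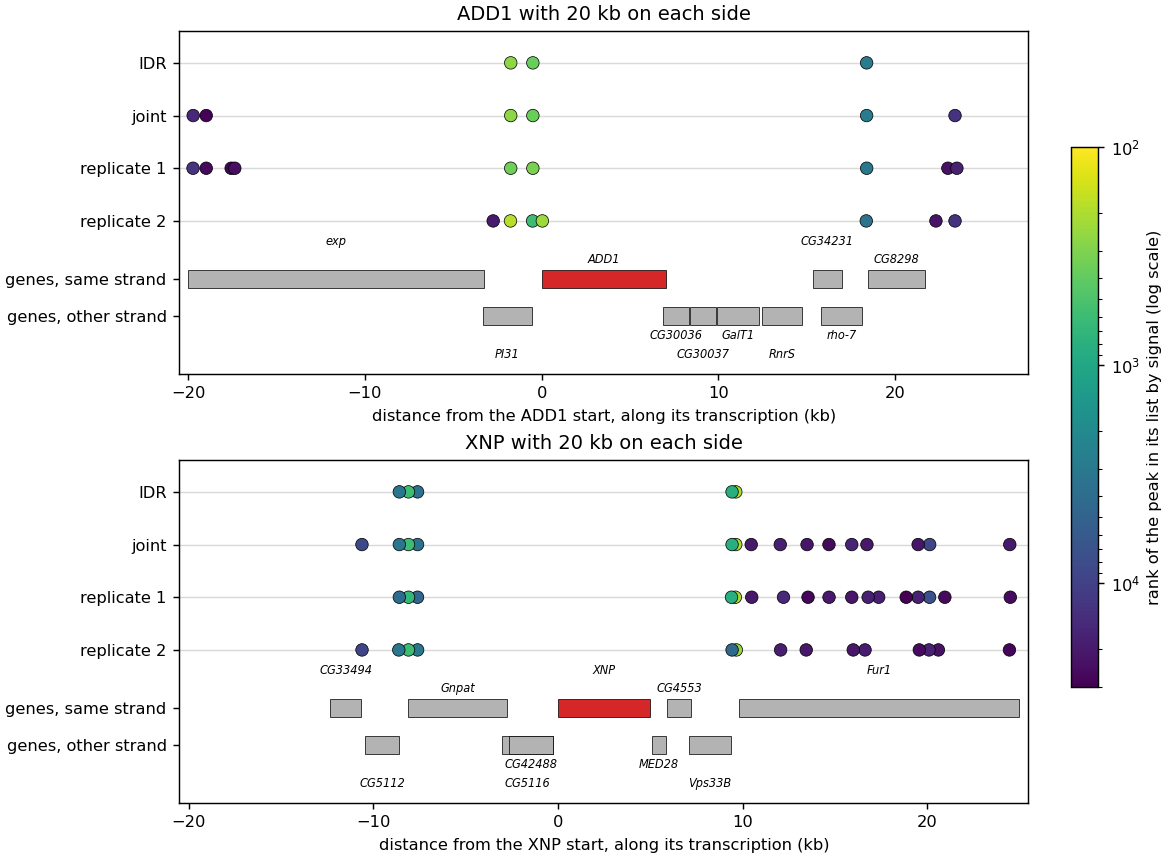
Summits of each of the 4 lists along ADD1 (upper panel) and XNP (lower panel), plotted by distance in kb from the gene's start along its transcription, with colour giving the rank of each peak in its list on a log scale and boxes giving protein-coding genes by strand. The IDR list has 3 summits near ADD1 and 5 near XNP, both gene bodies are empty in it, and replicate 2 alone has a summit in ADD1, at its start.

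At ADD1, 2 of the 3 IDR peaks lay upstream of the gene, at the neighbouring gene PI31. PI31 encodes a regulator of the proteasome, and its nearest annotated start faces away from that of ADD1, 571 bp off. The stronger peak there (chr2R:11968774-11969102) had its summit in an intron of PI31, 84 bp before an internal PI31 start and 1752 bp before the ADD1 start. It ranked 346 in replicate 1 and 183 in replicate 2, and 265 in the joint list. The other (chr2R:11970012-11970472) had its summit between the divergent starts, 71 bp before that of PI31 and exactly 500 bp before that of ADD1. It ranked 312 in replicate 1 and 600 in replicate 2, and 369 in the joint list. Both replicates therefore placed both peaks among the 600 strongest of 30000, in the opposite order. An IDR summit within 500 bp of a start was found at 26.1% of coding genes. In the IDR list ADD1 is among them by the tie at 500 bp, and the matching summit in replicate 2 was 515 bp away.

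Replicate 2 held a further strong peak on the ADD1 start itself (chr2R:11970545-11970875). Its summit was 36 bp downstream of the start, in the 5' UTR, and the interval ran from 141 bp before the start to 189 bp after it. It ranked 232 in replicate 2 with a signal of 500, above the signal of 333 of the PI31 peak next to it in the same list. Replicate 1 had no peak there: its nearest summit was 536 bp away, and its nearest interval ended 74 bp before that of replicate 2. The joint list and the IDR list had none either, although they were made with the reads or the peaks of replicate 2, and their nearest interval ended 72 bp short. The summit nearest to ADD1 was thus 36 bp from the start in replicate 2 and 500 bp in replicate 1.

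**Figure D2:**
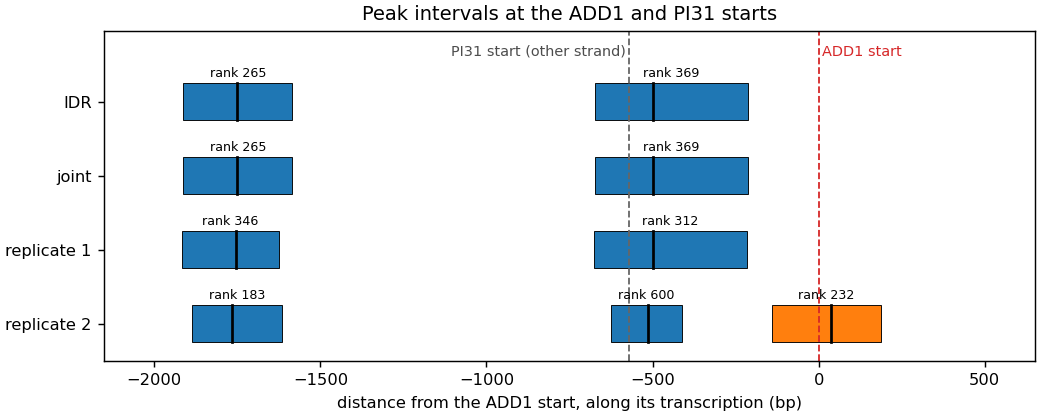
Peak intervals (boxes) with their summits (black lines) and ranks in each of the 4 lists, by distance in bp from the ADD1 start, with dashed lines at the starts of ADD1 and PI31. The orange box of rank 232 in replicate 2 covers the ADD1 start, and replicate 1, the joint list and the IDR list have no interval there.

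A peak of this rank without a partner was uncommon. Of the 232 strongest peaks of replicate 2, 5 overlapped no peak of replicate 1 (2.16%), and the ADD1 peak was 1 of them. In the opposite direction 1 of the 232 strongest peaks of replicate 1 overlapped none of replicate 2 (0.431%). Set against the joint list, 5 of the 232 strongest peaks of replicate 2 overlapped no joint peak (2.16%), the ADD1 peak included. For replicate 1 it was 3 of 232 (1.29%). Counted by gene, 148 coding genes had a summit inside at rank 232 or better in replicate 2, and 3 of these, ADD1 included, had no summit inside in replicate 1 (2.03%). The 3 include eEF1gamma, where a replicate 1 summit of rank 254 lay 4 bp from that of replicate 2, just outside the gene. A summit inside at any rank was found in 34.2% of coding genes in replicate 2 and in 28.4% in replicate 1, and one within 500 bp of a start in 44.7% in replicate 2. The call at the ADD1 start rests on replicate 2 alone, and with a single pair of replicates the cause of the difference was not tested.

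The gene body of ADD1 and its 3' neighbours formed a long stretch without summits. In the joint list the next summit after the one at PI31 was 18880 bp away, and none lay at the starts of the next 5 coding genes. These were CG30036, CG30037, GalT1, RnrS, which encodes the small subunit of ribonucleotide reductase, and CG34231. The stretch measured 18883 bp in replicate 1, and 18324 bp in replicate 2 when counted from its peak on the ADD1 start. It ended at the third IDR peak (chr2R:11988956-11989168), which lay between the divergent starts of CG8298 and of rho-7, a mitochondrial rhomboid protease, 65 bp and 279 bp from them. That peak ranked 2965 in replicate 1 and 3396 in replicate 2, and 2874 in the joint list.

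The IDR summit nearest to the XNP start lay 7604 bp upstream of it, at the neighbour Gnpat. The distance was 7606 bp in replicate 1 and 7601 bp in replicate 2, so the replicates differed by 5 bp. Over all coding genes the median distance from a start to the nearest IDR summit was 5580 bp with quartiles of 405 and 16066 bp, and 43.5% of genes were as far or farther from one. Gnpat encodes an acyltransferase of ether lipid synthesis, and 3 summits lay around its starts and that of the divergent gene CG5112. The strongest of them (chr3R:25490780-25491078) was 6 bp from a Gnpat start, in its 5' UTR, and ranked 676 in replicate 1 and 597 in replicate 2. The summit nearest to the XNP start (chr3R:25490398-25490566), also in the Gnpat 5' UTR, ranked 4658 in replicate 1 and 3148 in replicate 2. The third (chr3R:25491308-25491491), 37 bp from the CG5112 start and in an exon of asRNA:CR44179, ranked 4150 in replicate 1 and 3175 in replicate 2. Ranks of the 3 peaks thus kept the Gnpat start peak first in both replicates.

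Downstream of XNP the peak with the best joint-list rank in either window lay between the divergent starts of Fur1 and Vps33B. Fur1 encodes a furin protease that cuts precursor proteins, and Vps33B a protein of vesicle tethering. One interval of 696 bp (chr3R:25472881-25473576) carried 2 summits, 4656 and 4455 bp beyond the 3' end of XNP. The first, 154 bp from the Fur1 start, had a signal of 795 in replicate 1 and of 491 in replicate 2, where it ranked 243, and ranked 206 in the joint list. The second, 77 bp from the Vps33B start, ranked 843 in replicate 1 and 4452 in replicate 2, and 829 in the joint list. The ranks of the first differed 1.19 times between the replicates and those of the second 5.28 times, and 2.01% of the 7659 IDR peaks found in both replicates differed by as much.

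**Figure D3:**
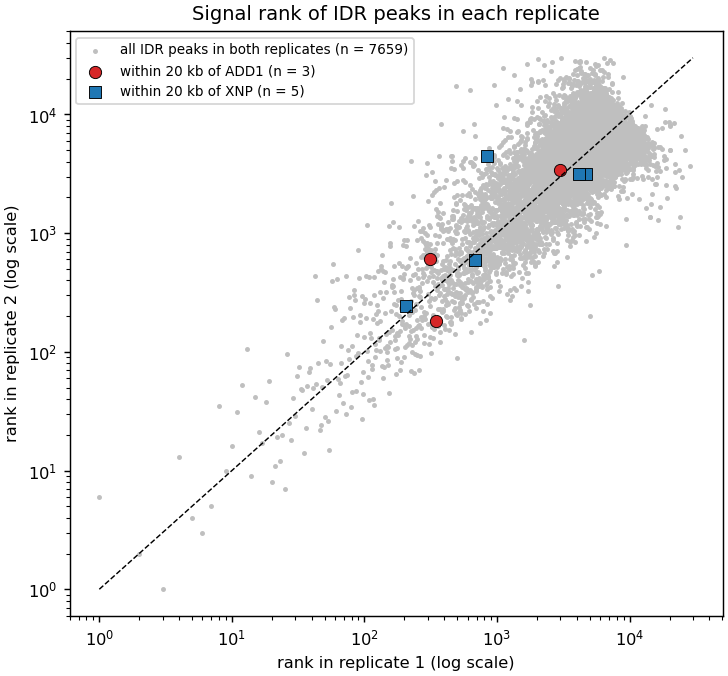
Rank of each IDR peak in replicate 1 (x axis) and in replicate 2 (y axis), both on log scales, for the 3 peaks near ADD1 (circles), the 5 near XNP (squares) and all 7659 IDR peaks with a summit in both replicates (grey), with the dashed line marking equal ranks. The square far above the line is the summit near the Vps33B start, with ranks of 843 and 4452.

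All 8 IDR peaks of the windows had a summit within 200 bp in each replicate list, as had 96.4% of IDR peaks. The larger of the ranks was 1.13 to 1.92 times the smaller for 7 of the 8, against a median of 1.51 and quartiles of 1.21 and 2.06 over all IDR peaks. The 20 kb limit fell in an empty part of the IDR list: the farthest summit inside it was 11345 bp from ADD1 and 8589 bp from XNP, and the nearest beyond it was 30277 bp from ADD1 and 24297 bp from XNP. Summits of the 8 peaks were at most 31 bp from their counterparts in either replicate.

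XNP also lay in a stretch without summits, of nearly the same length in every list. It measured 17025 bp in the joint list, 16997 bp in replicate 1 and 17024 bp in replicate 2. It holds the whole of 6 coding genes, namely XNP, Vps33B, CG4553, MED28, which encodes a Mediator subunit, CG5116 and CG42488. Gaps this long were few but cover much of the genome: 5.84% of the gaps between joint summits were as long, and they took up 61.0% of the sequence between summits. For 55.5% of coding genes the start lay in a joint-list gap at least as long, and for the ADD1 stretch the share was 52.3%. In replicate 2 the share for the XNP stretch was 46%. G and C made up 45.7% of the bases of ADD1 and 50.8% of those of XNP, against a median of 45.7% over coding genes, and soft-masked repeats 7.13% and 6.04%, against a median of 8.41%.

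The joint list added weaker peaks to both windows. Below the IDR threshold, 3 joint peaks lay near ADD1 and 10 near XNP, and 9 of these 10 were in introns of Fur1, on the 3' side of XNP. Their ranks ran from 8427 to 26012 at XNP and from 13237 to 28917 at ADD1. A summit within 200 bp was present in both replicate lists for 7 of the 10 and for 1 of the 3. The share over all joint peaks below the IDR threshold was not computed, so these small counts have no background. On the 5' side the joint list added 1 peak at XNP, 185 bp from a start of asRNA:CR44179 (rank 8427), which replicate 2 held at rank 9268 and replicate 1 did not hold. Near ADD1 the weak peaks were in an intron of exp and in an exon of lncRNA:CR45319.

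**Figure D4:**
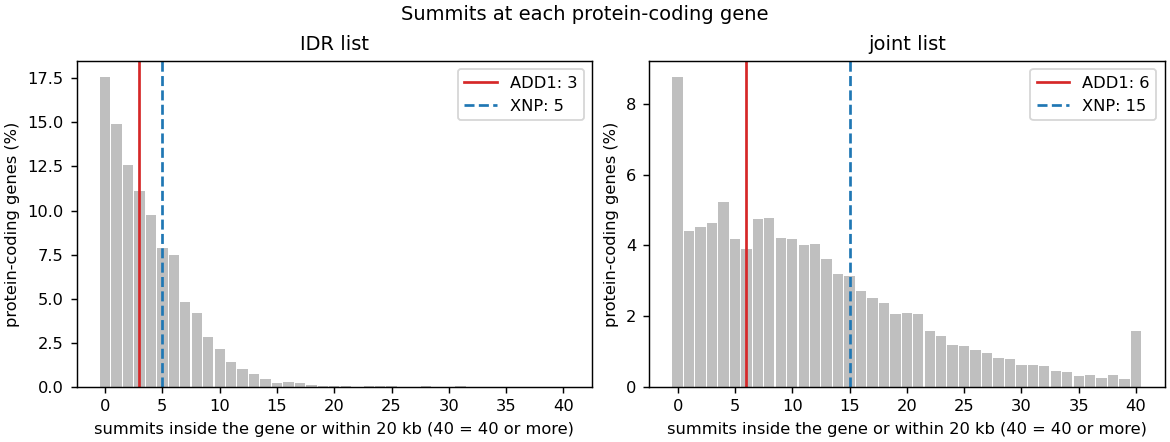
Share of the 13945 protein-coding genes (y axis, %) by the number of summits inside the gene or within 20 kb (x axis) in the IDR list (left) and the joint list (right). ADD1 with 3 and 6 summits and XNP with 5 and 15 fall inside the bulk of the genes.

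Of the 8 IDR peaks, 7 lay between divergent starts or within 500 bp of either, the exception being the peak in the PI31 intron, and none lay at the divergent start of XNP. The same share over all IDR peaks was not computed, so this count does not set the windows apart. There were 7 pairs of divergent coding starts at most 1000 bp apart in the windows, and 4 of them had an IDR summit between the starts or within 500 bp of either. Over the genome 36.6% of 2326 such pairs had one. The pairs with a summit were PI31 and ADD1, rho-7 and CG8298, Fur1 and Vps33B, and Gnpat and CG5112, 344 to 571 bp apart. Those without were RnrS and CG34231 (615 bp), CG4553 and MED28 (88 bp), and XNP with CG42488 (264 bp), whose start CG5116 shares. The joint list gave the same 4 of 7, against 44.7% of pairs.

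All 8 IDR peaks contained CGATA on either strand within 100 bp of the summit, but the peaks are not 8 separate sites. Of the 8 summits, 2 lay between the Fur1 and Vps33B starts and 3 around the Gnpat and CG5112 starts. CGATA was present at 31.8% of all IDR summits and within 100 bp of 39.4% of coding gene starts. The peak in the PI31 intron held it 6 times, as 0.327% of IDR summits did, and was the only one of the 8 with TATCGATA, which counts as an overlapping CGATA on each strand and was present at 4.24% of IDR summits. The ADD1 start held CGATA once within 100 bp, and the replicate 2 summit on that start did not hold it. GAGAG, a site of the GAGA factor, occurred at 2 of the 8 (29.7% of IDR summits), and neither GGTCACACT, the site of M1BP (2.76%), nor CACGTG, the E-box (2.57%), occurred at any. The peak between the PI31 and ADD1 starts was poor in G and C at 28.4%, and 1.22% of IDR summits were as low or lower.

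Genes of related functions were set beside the pair by the same measure. The first list, of 12 genes around H3.3 deposition and histone exchange, was broad and included genes not specific to H3.3, such as Trl and the 3 Caf1 genes. Of the 12, 6 had an IDR summit within 500 bp of a start (50%, exact 95% interval 21.1 to 78.9), against 26.1% of all coding genes. The strongest was Trl, which encodes the GAGA factor, at rank 157, with 160 in replicate 1 and 153 in replicate 2. The next were yem of the HIRA complex at rank 786, dre4 of the FACT complex at 1466, His3.3A, which encodes H3.3 itself, at 1942, and Spt6, a histone chaperone of elongation, at 2279. His3.3B also had an IDR peak, and Hira, asf1, Ssrp and the 3 Caf1 genes had none. Hira had a promoter peak in replicate 2 alone (rank 6017). Among 18 genes of heterochromatin proteins and their partners 7 had a peak (38.9%, exact 95% interval 17.3 to 64.3). These were led by the H3K9 methyltransferase gene G9a at rank 1527 and by wde, a cofactor of the methyltransferase Eggless, at 1799, followed by sov, ova and the gene of HP1a at 3387, 3421 and 3693. Of those without an IDR peak, HP4 had a promoter peak in replicate 2 alone (rank 3726). HP1b had a weak one in the joint list (rank 17235), in replicate 1 (22968) and in replicate 2 (21834). Of 13 ATPase genes of the SNF2 family other than XNP, 5 had a peak (38.5%, exact 95% interval 13.9 to 68.4). They were Iswi at rank 319, brm at 1666, Hel89B at 2683, kis at 3192 and Ino80 at 5833. The intervals of all 3 lists include the share over all coding genes. They are wide because the lists are short, and the lists were chosen with earlier results known, so no conclusion is drawn from them in either direction. Like XNP, the other 8 had no IDR summit within 500 bp of a start, but Mi-2 had 7 and Etl1 1 inside the gene, Etl1 had a weak summit at a start in the joint list (rank 14789), and Chd1 had one in replicate 2 alone (rank 1107).

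ADD1 had no summit inside in replicate 1, and every gene without such a summit was given the same placeholder rank, after the last peak. The match to ADD1 in replicate 1 was therefore only a shared lack of a summit, set by that placeholder. Among genes with this lack, those closest to ADD1 by replicate 2 rank were kraken, eEF1gamma, dhd, bchs and CG9992. Their ranks in replicate 2 were 234, 164, 376, 143 and 409, against 232 for ADD1. For kraken and eEF1gamma a replicate 1 summit lay 5 and 4 bp from that of replicate 2, just outside the gene, so only dhd, bchs and CG9992 also had none close by, with the nearest at 17632, 552 and 795 bp. For XNP no gene was singled out, since 8748 other coding genes (62.7%) likewise had no summit inside in either replicate.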

How the data were processed

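The authors deposited peak lists on dm6, per the file headers and descriptions. Per the file headers, the replicate lists and the joint list came from alignments with a control, and these 3 lists together gave the IDR list. Which caller, aligner and filters were used is not stated in the material at hand, and depth is unknown. The deposited signal is a score on an unstated scale and served only for ranking peaks inside each list. The −log10 q-value the authors deposited was capped at 4.13 for 6739 IDR peaks and was not used.

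Summits were the 0-based start plus the deposited offset, written 1-based. Genes came from Ensembl release 115 and sequence from RefSeq, both genome Release 6, and no peak ran past a reference end. Inside means a summit within the annotated gene, and a promoter is 500 bp on either side of any start. Intervals on shares are exact (Clopper-Pearson, 95%) and reflect counting error alone. Without a second condition or read counts no p-value was computed, and values were read against all protein-coding genes or all IDR peaks. Counting was checked on planted summits and was exact for 200 of 200 genes. The members, words and related lists were chosen with earlier results of these data known, and 1 of 44 listed names was not matched. Named genes were the pair, genes at summits in the windows, and up to 5 members per list with the strongest promoter peak. The 5 genes most like ADD1 by Euclidean distance of log10 ranks were named too. For that distance, genes without a summit inside in a replicate shared a placeholder rank after the last peak. The remaining list members, the genes of the empty stretches and those of the divergent pairs were named after their values were seen. Python 3.11.15, numpy 2.4.6, pandas 2.3.3, scipy 1.17.1 and matplotlib 3.10.9 were used. The alternatives were each replicate alone, the stronger IDR peaks, the joint list, other windows, promoter widths and match distances.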

Additional observations from a re-analysis of the deposited data

How the results depend on the processing

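No paired analysis was possible because there is 1 group. The counts inside XNP (0) were unchanged under the 5 alternatives run. Inside ADD1 the count was 0 in replicate 1 and 1 in replicate 2, and the distance from the ADD1 start to the nearest summit was 36 to 500 bp. Summits within 20 kb numbered 6 at ADD1 and 15 at XNP in the joint list, and within 50 kb 7 and 11 in the IDR list. The XNP distance was 7648 bp from the interval's centre. Coding genes with a summit inside numbered 2408, and 1549 with the stronger 3972 peaks, 4002 with the joint list and 3613 by any overlap of at least 1 bp. With promoters of 200 bp the heterochromatin list had 4 of 18 genes with a peak and the SNF2 list 3 of 13, against 21.7% of coding genes at that width. The alternatives for these lists, and any of the 5 words within 50 bp (6 of 8 peaks, against 34% of IDR summits; within 100 bp 8 of 8, against 55.9%), were chosen after seeing the data. Of the values recomputed, 58 stayed within 1.5 times for counts, or within 1 SD of the replicates for distances, and 12 did not. With unknown depth, a missing peak in a list is not evidence of absent binding.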

Other observations

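The other 4 of the 232 strongest peaks of replicate 2 that overlapped no replicate 1 peak lay in an intron of tsr, the gene of cofilin (rank 85, nearest replicate 1 summit 876 bp away), in a coding exon of the insulin receptor gene InR (rank 124, 557 bp), in an intron of bchs (rank 143, 552 bp) and 21 bp before a start of the ribosomal protein gene RpL28 (rank 156, 17526 bp). The RpL28 summit was also a summit of the joint list, and the tsr, InR and bchs summits were 896, 558 and 552 bp from the nearest joint summit. The single such peak of replicate 1 was in an intron of Cftr (rank 179, nearest replicate 2 summit 655 bp away). These genes were named after their values were seen.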
